A study of Mus musculus with 25 samples.

Results

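The genes examined here are 10 genes of immature, nonmyelinating or dedifferentiated Schwann cells, the transcription factors Sox2, Runx2, Egr1 and Olig1, the receptor Ngfr, the adhesion molecules Ncam1, L1cam and Cdh2, the growth-associated protein Gap43 and the intermediate filament Gfap. They were chosen by name from what is known of Schwann cells, but with earlier results of these data known. Shares of all genes given beside them below are therefore descriptive and no independent test of the set. All 10 were found among the 56956 genes of the count table. RNA of whole sciatic nerve was sequenced as 25 libraries, with 1 library for each of 5 groups at ages of 3, 5, 7, 9 and 12 weeks. C3 mice carry 5 copies of human PMP22 on a C57BL/6J background and were compared with C57BL/6J wild-type mice (WT-C3). C22 mice carry 10 copies on an FVB/NRJ background and were compared with FVB/NRJ wild-type mice (WT-C22). C3 c-JunP0Cre mice carry the C3 transgene together with a c-Jun knockout in Schwann cells, made with the P0-Cre driver, which is active in Schwann cells. The genotype label of this group names no background strain. A difference in background from C3 can therefore not be told apart from the c-Jun knockout. Both transgenic lines model Charcot-Marie-Tooth disease type 1A, a demyelinating neuropathy caused by an extra copy of PMP22, and C3 arose as a partial revertant of C22. Copy number and strain therefore change together between C3 and C22, and no mice with the Cre or the altered c-Jun gene alone were among the groups. No group was treated. The library names share 1 prefix, and the sample and library labels used here name no batch. Each library came from a pool of 4 to 5 animals of both sexes. With 1 pool per group and age, replicates were the pools of different ages (n = 5), so that each SD, standard error (SE) and p covers age as well as the spread between pools.

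Schwann cells develop from neural crest through precursors and immature Schwann cells, which then either myelinate a large axon or ensheath several small axons as nonmyelinating (Remak) cells. Sox2, Ngfr, Ncam1, L1cam, Gap43 and Gfap are present in immature cells, are turned off as myelin forms and persist in part in Remak cells. After injury, myelinating cells lose myelin genes and take up these genes again together with a repair program that depends on the transcription factor c-Jun. Sox2 and c-Jun are known to oppose the myelin regulator Egr2. Cdh2, or N-cadherin, joins immature Schwann cells to each other and to axons. Runx2 and Olig1 are best known from bone and from oligodendrocytes and are induced in Schwann cells after nerve injury. Egr1 is an immediate early gene that is also found in nonmyelinating cells.

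Values are CPM, read counts of a gene relative to the total of its library, scaled by the TMM method of edgeR over all libraries, and changes are log2 fold changes from edgeR's quasi-likelihood test. A gene counted as changed at an adjusted p under 0.05, with Benjamini-Hochberg adjustment over the 13993 genes whose log2 CPM exceeded 1 in 7 or more libraries. Of the 10 genes, 9 were kept and Olig1 was not, and it is described by its counts. The depth on genes ran from 2140142 counts in the C3 library of 9 weeks to 49072746 in that of 7 weeks. Jun, which encodes c-Jun, was at 57.4 ± 8.04 CPM in WT-C3, 109 ± 9.27 in C3 and 29.4 ± 2.42 in C3 c-JunP0Cre (mean ± SD, n = 5), with no overlap between these groups. Human PMP22 was between 10077 and 14131 CPM in C3, between 7874 and 16297 in C3 c-JunP0Cre and between 9913 and 14104 in C22. The ranges of C3 and C22 thus overlapped, though their copy numbers differ. In the libraries of the wild types it was between 0.0395 and 6.30 CPM.

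Positions are given on GRCm39 from GENCODE M39. Sox2 (ENSMUSG00000074637) is at chr3:34704554-34706610, Runx2 (ENSMUSG00000039153) at chr17:44806874-45125684 and Olig1 (ENSMUSG00000046160) at chr16:91066660-91068821. Ngfr (ENSMUSG00000000120) is at chr11:95459638-95478561 and Gfap (ENSMUSG00000020932) at chr11:102778159-102791738. Ncam1 (ENSMUSG00000039542) is at chr9:49413436-49710357, L1cam (ENSMUSG00000031391) at chrX:72897378-72939711 and Gap43 (ENSMUSG00000047261) at chr16:42068805-42161086. Sox2 lies inside the long noncoding gene Sox2ot on the same strand, and Runx2 overlaps Supt3 on the opposite strand. The strand setting of the counting is not given in the sources used here, so reads of overlapping genes on opposite strands may not be separated.

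The 100 bases before the start site are shown for the 4 genes that rose most in C3, as a view of the regions from which these transcripts start. They were read from the promoter table of RefSeq on GRCm38.p6, which held an entry for 5 of the 10 genes, and run 5′ to 3′ on the strand of the gene. Coordinates are those of this older build and are not those of the counts. Capitals mark a match to the Runx motif TGTGGT, here on the other strand.
Sox2 (chr3:34649895-34649994, plus strand): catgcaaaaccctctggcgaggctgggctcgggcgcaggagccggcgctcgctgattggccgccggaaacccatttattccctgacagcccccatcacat
Ngfr (chr11:95587699-95587798, minus strand): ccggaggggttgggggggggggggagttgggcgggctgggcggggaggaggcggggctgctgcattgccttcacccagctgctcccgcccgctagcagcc
Gfap (chr11:102897201-102897300, minus strand): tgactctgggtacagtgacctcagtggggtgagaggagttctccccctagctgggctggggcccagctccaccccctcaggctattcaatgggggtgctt
Runx2 (chr17:44814628-44814727, minus strand): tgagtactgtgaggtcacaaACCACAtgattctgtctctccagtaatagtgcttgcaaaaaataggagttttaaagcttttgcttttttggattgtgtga

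The windows of Sox2, Ngfr and Gfap held 64%, 77% and 62% G and C, and that of Runx2 37%. Within 250 bases before to 50 bases after the start, motifs were searched on both strands. TGTGGT was found 3 times at Runx2, from 80 bases before the start site and from 24 and 32 bases after it, and in 16.8% of the 32851 promoter windows of the table. The AP-1 motif TGANTCA (7.81% of all windows), the Egr motif GCGNGGGCG (5.55%) and the Sox motifs ACAATG (12.6%) and ATTGTT (10.7%) were found in none of the windows of Sox2, Ngfr, Gfap, Runx2 and L1cam. A match is a description of these letters only, and no match says nothing on the binding of a factor.

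Per kilobase of exon, the order of the mean levels in WT-C3 was Ngfr (16.5 CPM per kb), Cdh2 (11.8), L1cam (10.7), Ncam1 (7.90), Egr1 (6.20), Sox2 (5.08), Gap43 (3.10), Gfap (0.775), Runx2 (0.218) and Olig1 (0.0218). The neighbours Cdh2 and L1cam, with SDs of 1.07 and 1.71 CPM per kb, did not differ beyond their spread, nor did Egr1 and Sox2, with SDs of 2.23 and 0.597. In C3, Ngfr stood at 57.5 ± 8.90 CPM per kb, L1cam at 17.9 ± 3.29 and Sox2 at 11.8 ± 1.39, and Cdh2 had dropped below all 3 to 6.69 ± 0.512 (mean ± SD, n = 5).

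**Figure D1:**
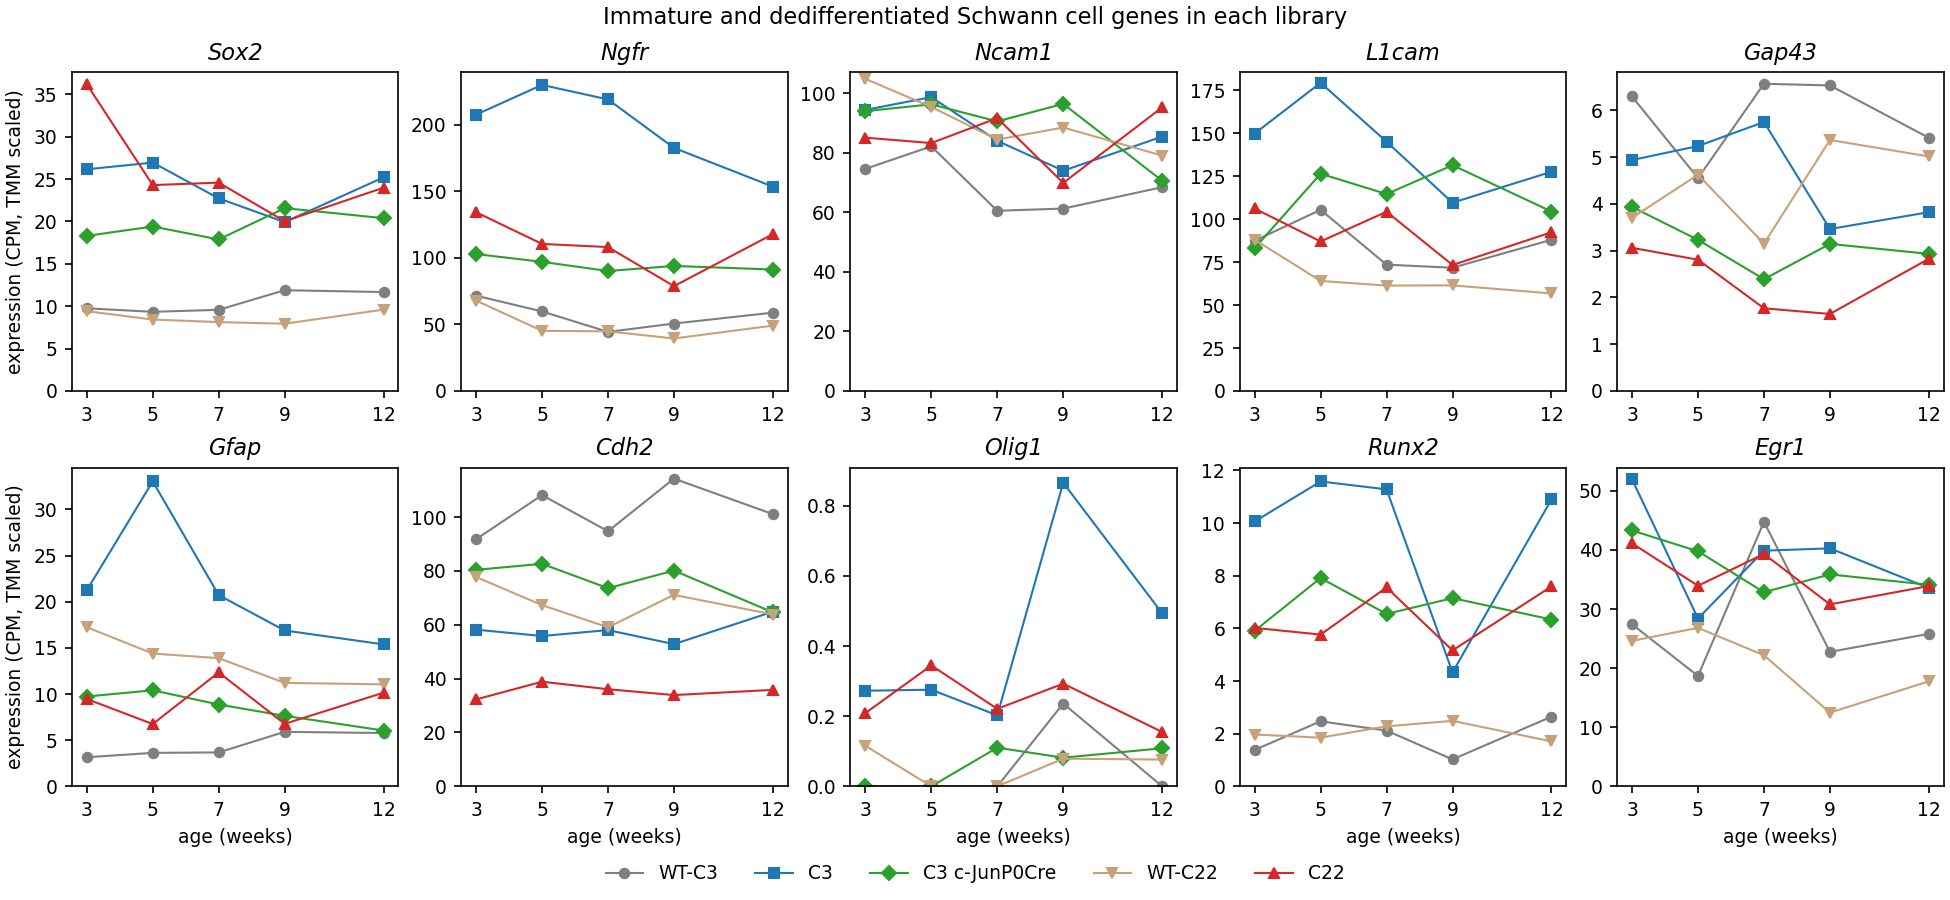
Expression of the 10 genes (CPM, TMM scaled, each y axis from 0) in every library against age in weeks, with 1 line for each group. Sox2, Ngfr and Runx2 lie higher in C3 and C22 than in both wild types at every age, Cdh2 lies lower in each model than in its own wild type, and Gfap is highest in C3 and higher in WT-C22 than in WT-C3.

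In C3 compared to WT-C3, 6 of the 9 genes tested rose and 1 fell. Ngfr, Gfap and Runx2 rose most, Sox2, L1cam and Ncam1 rose by less, Cdh2 fell, and Gap43 and Egr1 did not pass the test. Over all genes, 23.9% passed in this comparison, 12.5% higher and 11.4% lower. The median log2 fold change of the 9 genes was 0.72, beside 0.00105 over all genes tested. The libraries of C3 and WT-C3 did not overlap for 6 of the 9 genes, 5 higher and 1 lower, against 17.5% of all genes (9.99% higher, 7.46% lower).

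In C22 compared to WT-C22, 5 of the 9 genes rose and 3 fell, where 42.4% of all genes passed (21.9% higher, 20.5% lower). Sox2, Runx2, Ngfr, Egr1 and L1cam rose, Cdh2, Gap43 and Gfap fell, and Ncam1 did not pass. The median of the 9 genes was 0.45, beside 0.00457 over all genes. The libraries did not overlap for 6 of the 9 genes, 4 higher and 2 lower, against 30.8% of all genes (17.4% higher, 13.4% lower). In a direct test of the C22 change less the C3 change, 12.1% of all genes passed (4.75% higher, 7.31% lower), and Gfap, Ngfr and Ncam1 were among them, each with the lower value in C22.

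In C3 c-JunP0Cre compared to C3, Ngfr and Gfap fell and the other 7 genes did not pass, where 0.55% of all genes passed (0.222% higher, 0.329% lower). The libraries did not overlap for these 2 genes, both lower, against 2.39% of all genes (1.38% higher, 1.01% lower). Libraries of the same age resembled each other in these 2 groups. Values below are from the fit without the block, as is their plot. With age as a block the same 2 of the 9 genes passed, Ngfr at -1.06 (edgeR adjusted p = 0.000474) and Gfap at -1.32 (0.000439), while the count over all genes went from 77 (31 higher, 46 lower) to 273 (164 higher, 109 lower), which is 1.95% of all genes (1.17% higher, 0.779% lower). In C3 c-JunP0Cre compared to WT-C3, 5 of the 9 genes were higher and 2 lower, where 21.5% of all genes passed (10.3% higher, 11.3% lower). The libraries did not overlap for 6 of the 9 genes, 4 higher and 2 lower, against 17.1% of all genes (10.1% higher, 6.97% lower). The comparisons of C3 c-JunP0Cre share the C3 or the WT-C3 libraries with that of C3, so their values stand side by side below and are not independent of each other.

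**Figure D2:**
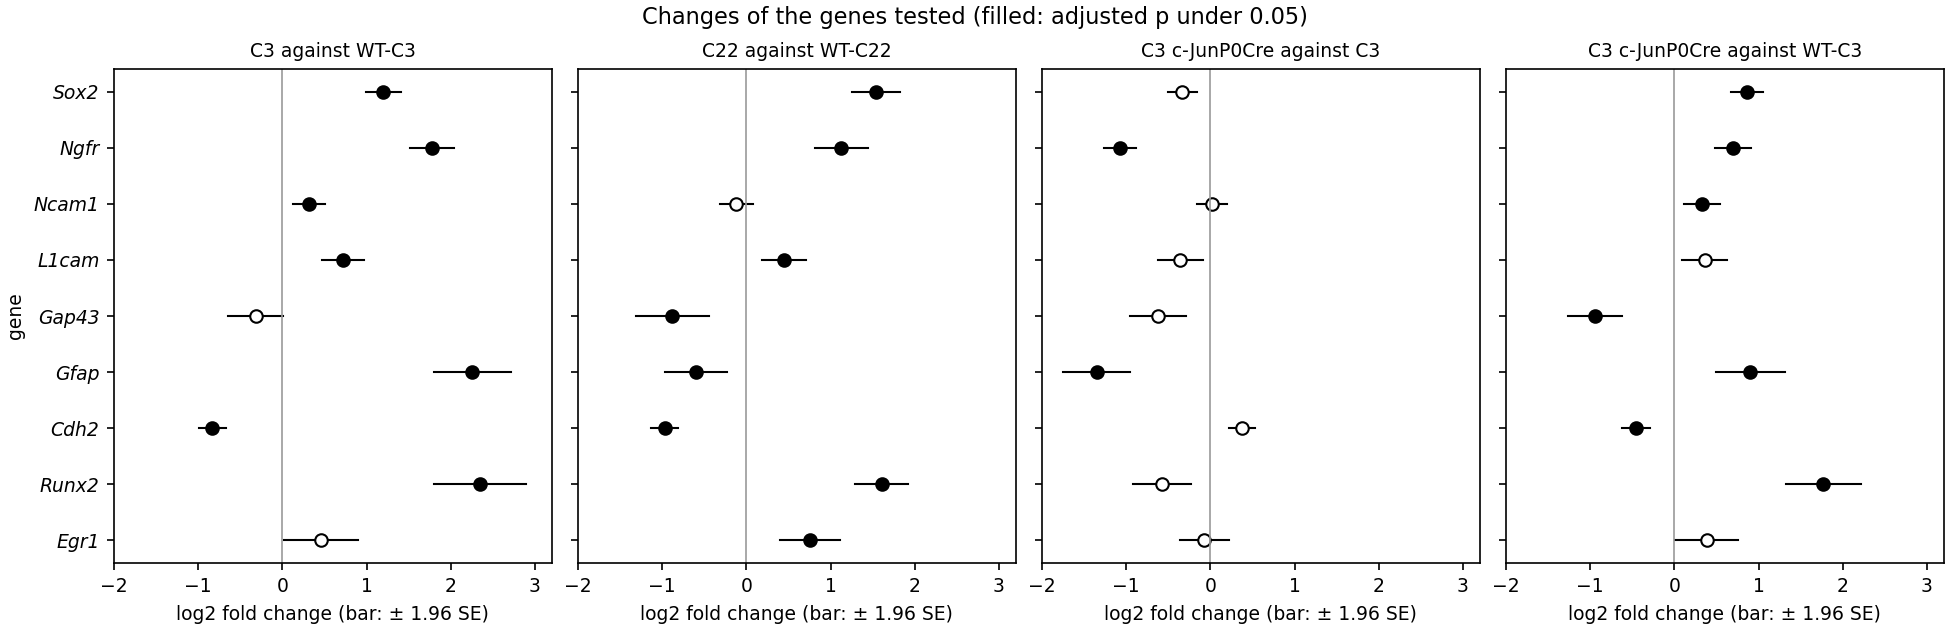
Log2 fold change of the 9 genes tested in 4 comparisons (x axis), with 5 libraries per group. Bars show a nominal 95% interval, taken from the SE with the normal distribution. They make no allowance for the few libraries and are narrower than the test allows, so a bar clear of 0 is no passed test. For Egr1 in C3 against WT-C3 the bar runs from 0.0204 to 0.899, where edgeR's quasi-likelihood test gave an unadjusted p of 0.0627. Filled points passed an adjusted p of 0.05 in edgeR's quasi-likelihood test. Gfap lies at 2.26 in C3 and at -0.60 in C22, Cdh2 lies below 0 in both, and only Ngfr and Gfap are filled in C3 c-JunP0Cre against C3.

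Sox2 is a transcription factor of stem cells and immature Schwann cells that holds back myelination. In WT-C3 it was at 9.75, 9.34, 9.58, 11.9 and 11.7 CPM from the youngest to the oldest age. In C3 it was at 26.1, 26.9, 22.7, 19.9 and 25.2 CPM, so that the lowest C3 library lay above the highest WT-C3 library. The log2 fold change was 1.20 (edgeR adjusted p = 3.8e-05, SE 0.10), a 2.30-fold difference seen at 5 of 5 ages. WT-C22 libraries were at 9.41, 8.43, 8.12, 7.93 and 9.60 CPM, and C22 libraries at 36.2, 24.3, 24.6, 20.0 and 24.0 CPM. These groups did not overlap either, and the C22 library of 3 weeks stood above the other 4. Sox2 rose in C22 by 1.54 on the log2 scale (edgeR adjusted p = 1.04e-05, SE 0.15). The C22 change exceeded the C3 change by 0.32 (SE 0.18), which did not pass (edgeR adjusted p = 0.288). In C3 c-JunP0Cre, Sox2 was at 18.3, 19.4, 17.9, 21.6 and 20.4 CPM. These values overlapped those of C3 and lay above all of WT-C3. The difference from C3 was -0.33 (edgeR adjusted p = 0.196, SE 0.09), and that from WT-C3 was 0.86 (edgeR adjusted p = 7.6e-05, SE 0.10). DESeq2, as an alternative, gave -0.34 with an adjusted p of 0.0311 for the first of these.

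Runx2 is a transcription factor of bone formation that is also induced in injured Schwann cells. In WT-C3 it was at 1.38, 2.47, 2.12, 1.02 and 2.65 CPM, and in C3 at 10.1, 11.6, 11.3, 4.33 and 10.9 CPM. The lowest C3 value is that of the 9-week library, where it rests on 10 counts, and it still lay above every WT-C3 library. Runx2 rose in C3 by 2.34 on the log2 scale (edgeR adjusted p = 0.000234, SE 0.28), a 5.08-fold difference, and by 2.46 without the 9-week C3 library. In WT-C22 it was at 1.97, 1.85, 2.28, 2.49 and 1.71 CPM, and in C22 at 6.02, 5.76, 7.55, 5.16 and 7.59 CPM. The C22 libraries all lay above their controls, with a log2 fold change of 1.61 (edgeR adjusted p = 1.6e-05, SE 0.16). The C22 change less the C3 change was -0.76 (edgeR adjusted p = 0.146, SE 0.32), and -0.87 with an adjusted p of 0.0456 when the 9-week C3 library was left out. In C3 c-JunP0Cre the values were 5.90, 7.91, 6.55, 7.15 and 6.33 CPM. All 5 lay between the WT-C3 range and the 4 deeper C3 libraries. The difference from C3 was -0.58 (edgeR adjusted p = 0.289, SE 0.18), and -0.68 with an adjusted p of 0.0182 without the 9-week C3 library. On all libraries it passed with DESeq2 (-0.60, adjusted p = 0.0194) and with edgeR's likelihood ratio test (-0.61, adjusted p = 0.0131). Against WT-C3, Runx2 was 1.77 higher (edgeR adjusted p = 0.00019, SE 0.23). As a check for cells of bone or cartilage, the summed level of Bglap, Ibsp, Sp7, Sost and Acan ran from 0 to 1.30 CPM in C3 and from 0.481 to 0.845 in WT-C3. The 0 in C3 is that of the shallow 9-week library. The other C3 libraries, from 0.969 CPM up, lay above every WT-C3 library, as did those of C3 c-JunP0Cre. The sum ran from 0.278 to 0.626 CPM in C22, from 0.103 to 0.579 in WT-C22 and from 0.869 to 1.20 in C3 c-JunP0Cre. None of the 5 passed the filter, and Sost had no count in any C22 library and a mean of 0.00509 CPM in WT-C22. The part of such cells in the level of Runx2 was not tested.

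Egr1 (ENSMUSG00000038418, GRCm39 chr18:34992876-34998049) is an immediate early transcription factor of nonmyelinating Schwann cells. In WT-C3 it was at 27.4, 18.7, 44.8, 22.7 and 25.8 CPM, and in C3 at 52.0, 28.4, 39.9, 40.3 and 33.5 CPM. These ranges overlapped, since the WT-C3 library of 7 weeks was above 4 of the 5 C3 libraries. The log2 fold change was 0.46 (edgeR adjusted p = 0.157, SE 0.22), and 0.69 with an adjusted p of 0.0204 without that WT-C3 library. In WT-C22, Egr1 was at 24.6, 26.8, 22.2, 12.5 and 17.8 CPM, and in C22 at 41.1, 33.9, 39.3, 30.8 and 33.9 CPM. The C22 libraries all lay above those of WT-C22, with a log2 fold change of 0.76 (edgeR adjusted p = 0.00572, SE 0.18). The C22 and C3 changes differed by 0.28 (SE 0.31), which did not pass (edgeR adjusted p = 0.644). In C3 c-JunP0Cre it was at 43.3, 39.8, 32.8, 35.9 and 34.1 CPM, within the range of C3, and the difference from C3 was -0.07 (edgeR adjusted p = 0.974, SE 0.15). Against WT-C3 it was 0.39 (edgeR adjusted p = 0.173, SE 0.19), and 0.62 with an adjusted p of 0.00596 without the 7-week WT-C3 library.

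Other immediate early genes were taken from a list of 10, all kept by the filter. In C3, 4 of the 10 were higher and 0 lower, with a median log2 fold change of 0.19. These were Fos at 1.60 (edgeR adjusted p = 0.00169), Egr3 at 1.85 (0.000916), Junb at 0.81 (0.0223) and Nr4a1 at 0.36 (0.0309). In C22, 3 were higher (Fos at 1.42, Egr3 at 2.23 and Ier2 at 0.43) and Ier3 was lower at -0.68, with a median of 0.04. These 4 of 10 in each model stand beside 23.9% of all genes in C3 and 42.4% in C22. None of the 10 passed in C3 c-JunP0Cre compared to C3.

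Olig1 is a transcription factor of oligodendrocytes and their precursors. It had 0, 0, 0, 3 and 0 counts in the WT-C3 libraries, 9, 7, 10, 2 and 12 in C3, and 0, 0, 3, 2 and 3 in C3 c-JunP0Cre. The 2 counts in C3 are those of the shallow 9-week library, and counts of 0 to 3 are too few to tell from none. WT-C22 libraries had 3, 0, 0, 2 and 3 counts and C22 libraries 6, 7, 6, 8 and 4. Above 3 counts were thus 4 of 5 C3 libraries, 5 of 5 C22 libraries and no library of the other 3 groups. This cut does not allow for depth, whose median was 13416665 counts in WT-C3 and 26226737 in C3. As TMM-scaled CPM, the 9-week WT-C3 library was at 0.236, above the 7-week C3 library at 0.202. It also lay within the C22 range of 0.155 to 0.345 CPM. Pooled over the 5 libraries of a group, the rate was 0.0456 CPM in WT-C3 (95% exact Poisson interval 0.00941 to 0.133), 0.298 in C3 (0.213 to 0.406) and 0.0622 in C3 c-JunP0Cre (0.0269 to 0.123). It was 0.0611 CPM in WT-C22 (0.0264 to 0.12) and 0.251 in C22 (0.171 to 0.356). The ratio of the pooled rates was 6.54 for C3 against WT-C3 (interval 2.08 to 33.0), 4.11 for C22 against WT-C22 (1.85 to 10.3) and 4.80 for C3 against C3 c-JunP0Cre (2.21 to 11.9). For C3 c-JunP0Cre against WT-C3 it was 1.36 (0.327 to 7.98). These intervals cover counting error only and not the spread between pools. With no filter on low counts, edgeR's adjusted p for Olig1 was 0.0524 in C3, 0.0287 in C22 and 0.199 in C3 c-JunP0Cre against C3, so that it passed in C22 alone.

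**Figure D3:**
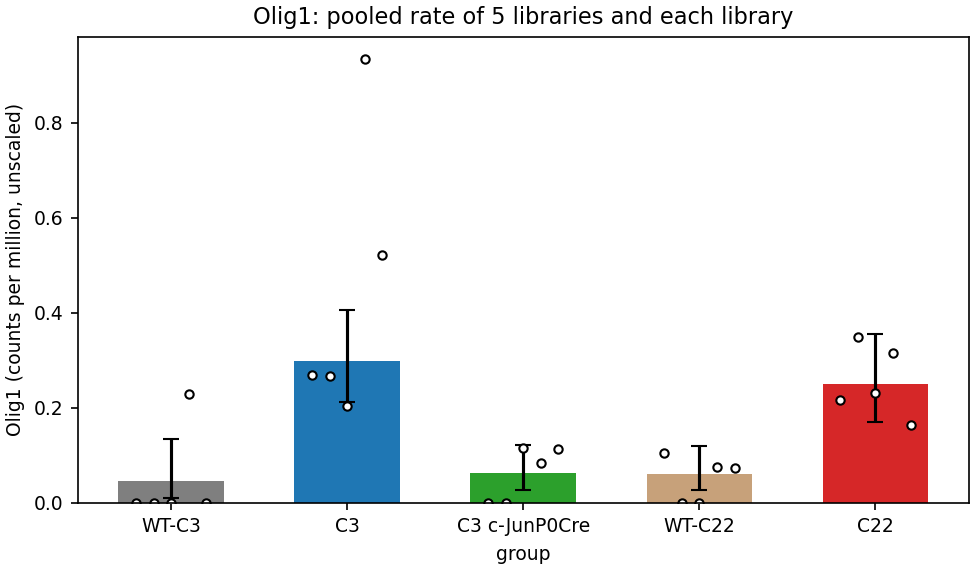
Olig1 in each group, with bars for the rate pooled over 5 libraries (CPM of the unscaled depth, from 0), error bars for the 95% exact Poisson interval and open circles for the 5 libraries from 3 to 12 weeks. The bars of C3 and C22 stand at 0.298 and 0.251 CPM and those of the other 3 groups below 0.07.

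Ngfr encodes the low-affinity neurotrophin receptor p75, a marker of immature, Remak and repair Schwann cells. In WT-C3 it was at 71.7, 59.8, 44.4, 50.7 and 58.9 CPM, and in C3 at 208, 230, 219, 183 and 154 CPM. Every C3 library was above every WT-C3 library, with a log2 fold change of 1.78 (edgeR adjusted p = 2.3e-05, SE 0.13), a 3.43-fold difference. In WT-C22 it was at 68.0, 45.2, 44.9, 39.5 and 49.1 CPM, and in C22 at 134, 111, 108, 78.8 and 118 CPM. The groups did not overlap, and the log2 fold change was 1.12 (edgeR adjusted p = 0.000208, SE 0.16), a 2.18-fold difference. The C22 change was lower than the C3 change by 0.67 on the log2 scale (edgeR adjusted p = 0.0472, SE 0.22). That call was lost in 16 of the 20 fits with 1 library left out, with adjusted p from 0.0246 to 0.114 and a difference from -0.75 to -0.51. It stood only without the 3-week library of WT-C3 or C22, the 9-week library of WT-C22 or the 12-week library of C3. In C3 c-JunP0Cre, Ngfr was at 103, 97.1, 90.2, 94.0 and 91.3 CPM. These 5 values lay between WT-C3 and C3 and overlapped neither group. Ngfr fell by 1.08 compared to C3 (edgeR adjusted p = 0.000288, SE 0.10), a level 0.475 times that of C3, and remained 0.70 above WT-C3 (edgeR adjusted p = 0.000764, SE 0.11).

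Gfap, an intermediate filament of astrocytes and of immature and Remak Schwann cells, moved in opposite directions in the 2 models. In WT-C3 it was at 3.15, 3.63, 3.67, 5.90 and 5.77 CPM, and in C3 at 21.2, 33.0, 20.7, 16.9 and 15.4 CPM. The groups were far apart, with a log2 fold change of 2.26 (edgeR adjusted p = 0.000101, SE 0.23), a 4.78-fold difference. In WT-C22 it was at 17.2, 14.4, 13.9, 11.2 and 11.0 CPM, and in C22 at 9.46, 6.75, 12.3, 6.77 and 10.1 CPM. The C22 library was the lower one at each age, although the ranges overlapped, and Gfap fell by 0.60 (edgeR adjusted p = 0.0226, SE 0.19). This call was lost when the 3-week WT-C22 library (-0.50, adjusted p = 0.0527) or the 5-week C22 library (-0.52, adjusted p = 0.0523) was left out, and with scaling by library size alone (-0.43, adjusted p = 0.0699). The C22 change less the C3 change was -2.88 (edgeR adjusted p = 3.22e-06, SE 0.31), and with 1 library left out in turn it ran from -3.0 to -2.67. The wild types themselves differed, with Gfap 1.57 higher in WT-C22 than in WT-C3 on the log2 scale (edgeR adjusted p = 0.000156, SE 0.20). Every WT-C22 library was above every WT-C3 library. In C3 c-JunP0Cre, Gfap was at 9.73, 10.4, 8.86, 7.64 and 6.04 CPM. All 5 values lay above WT-C3 and below C3. Gfap fell by 1.35 compared to C3 (edgeR adjusted p = 0.00984, SE 0.20) and was 0.90 above WT-C3 (edgeR adjusted p = 0.00866, SE 0.21).

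Ncam1 and L1cam are adhesion molecules of the immunoglobulin family that immature and Remak Schwann cells carry. Ncam1 was at 74.6, 82.2, 60.6, 61.3 and 68.5 CPM in WT-C3 and at 94.5, 98.8, 84.1, 74.0 and 85.5 in C3. The C3 library was the higher one at each age, while the ranges overlapped, and the log2 fold change was 0.31 (edgeR adjusted p = 0.0357, SE 0.10). The call was lost in 6 of the 10 fits with 1 library left out, those without WT-C3 at 7, 9 or 12 weeks or C3 at 3, 5 or 7 weeks, with adjusted p from 0.0141 to 0.0947 over the 10 fits and a fold change from 0.27 to 0.39. Ncam1 was at 105, 95.5, 84.5, 88.6 and 79.1 CPM in WT-C22 and at 85.2, 83.3, 91.7, 70.0 and 95.3 in C22. These overlapped throughout, with a log2 fold change of -0.12 (edgeR adjusted p = 0.351, SE 0.10). The C22 change less the C3 change was -0.46 (edgeR adjusted p = 0.04, SE 0.14). That call was kept in 7 of the 20 fits with 1 library left out, those without WT-C3 at 5 weeks, C3 at 7 or 9 weeks, or WT-C22 or C22 at 7 or 12 weeks, and the adjusted p ran up to 0.101. In C3 c-JunP0Cre it was at 94.1, 96.4, 90.6, 96.5 and 70.7 CPM, and the difference from C3 was 0.02 (edgeR adjusted p = 1, SE 0.09). Against WT-C3 it was 0.33 (edgeR adjusted p = 0.0457, SE 0.11), a call lost in 8 of 10 fits with 1 library left out, all but those without the 5-week WT-C3 or the 12-week C3 c-JunP0Cre library.

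L1cam was at 87.4, 105, 73.5, 71.7 and 88.0 CPM in WT-C3 and at 150, 179, 145, 110 and 128 CPM in C3. The lowest C3 library, that of 9 weeks, was just above the highest WT-C3 library, that of 5 weeks. L1cam rose in C3 by 0.72 (edgeR adjusted p = 0.00251, SE 0.13), a 1.65-fold difference. In WT-C22 it was at 88.0, 64.0, 61.3, 61.4 and 56.7 CPM, and in C22 at 106, 87.0, 104, 73.3 and 92.4 CPM. The WT-C22 library of 3 weeks stood apart from the other 4 and made the ranges overlap. L1cam rose in C22 by 0.45 (edgeR adjusted p = 0.0169, SE 0.13), and the C22 change less the C3 change was -0.29 (edgeR adjusted p = 0.381, SE 0.19). C3 c-JunP0Cre libraries were at 83.1, 126, 115, 131 and 104 CPM and overlapped both C3 and WT-C3. The difference from C3 was -0.36 (edgeR adjusted p = 0.496, SE 0.14). That from WT-C3 was 0.36 (edgeR adjusted p = 0.0787, SE 0.14), and it passed without the 5-week WT-C3 library (0.45, adjusted p = 0.036) or the 3-week C3 c-JunP0Cre library (0.45, adjusted p = 0.0168). On all libraries it passed with scaling by library size alone (0.45, adjusted p = 0.048) and with no filter on low counts (0.39, adjusted p = 0.0453).

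Cdh2 (ENSMUSG00000024304, GRCm39 chr18:16700793-16942381), the cadherin of contacts between immature Schwann cells, fell in both models. It was at 91.8, 108, 94.8, 114 and 101 CPM in WT-C3 and at 58.2, 55.8, 58.0, 52.8 and 64.9 CPM in C3. No library of these groups overlapped, and Cdh2 fell by 0.83 on the log2 scale (edgeR adjusted p = 7.68e-05, SE 0.08), to 0.562 times the control. In WT-C22 it was at 77.8, 67.3, 59.1, 71.1 and 63.8 CPM, and in C22 at 32.3, 38.9, 36.1, 33.9 and 35.8 CPM. The C22 libraries again all lay below their controls, and Cdh2 fell by 0.97 (edgeR adjusted p = 4.44e-06, SE 0.08). The C22 change less the C3 change was -0.16 (edgeR adjusted p = 0.429, SE 0.11). In C3 c-JunP0Cre it was at 80.4, 82.7, 73.6, 80.1 and 64.6 CPM. The first 4 of these lay between C3 and WT-C3, and that of 12 weeks fell within the range of C3. The difference from C3 was 0.38 (edgeR adjusted p = 0.0712, SE 0.08), and it passed without the 12-week library of C3 (0.43, adjusted p = 0.047) or of C3 c-JunP0Cre (0.43, adjusted p = 0.0313). DESeq2 gave it an adjusted p of 0.00332. Compared to WT-C3, Cdh2 was lower by 0.45 in C3 c-JunP0Cre (log2 fold change -0.45, SE 0.09, edgeR adjusted p = 0.00265). The wild types differed too, with -0.62 in WT-C22 against WT-C3 (edgeR adjusted p = 0.000397, SE 0.09).

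Gap43 is a protein of growth cones that immature and repair Schwann cells also make. It was at 6.30, 4.55, 6.57, 6.53 and 5.41 CPM in WT-C3 and at 4.94, 5.24, 5.75, 3.46 and 3.82 CPM in C3. The ranges overlapped, and the log2 fold change was -0.32 (edgeR adjusted p = 0.184, SE 0.17). In WT-C22 it was at 3.70, 4.62, 3.15, 5.37 and 5.01 CPM, and in C22 at 3.06, 2.81, 1.77, 1.65 and 2.83 CPM. The highest C22 library was below the lowest WT-C22 library, and Gap43 fell by 0.88 (edgeR adjusted p = 0.00743, SE 0.22). The C22 change less the C3 change was -0.58 (edgeR adjusted p = 0.193, SE 0.27). In C3 c-JunP0Cre it was at 3.94, 3.23, 2.39, 3.15 and 2.93 CPM. All 5 lay below WT-C3, by 0.94 on the log2 scale (log2 fold change -0.94, SE 0.17, edgeR adjusted p = 0.00169). The difference from C3 was -0.62 (edgeR adjusted p = 0.219, SE 0.17), with the C3 c-JunP0Cre library the lower one at each age.

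Neurons make Gap43 as well, and axonal RNA is part of a whole nerve. Of 6 neuronal genes (Nefl, Nefm, Prph, Stmn2, Snap25 and Tubb3), all 6 were lower in C22, where 42.4% of all genes passed, with a median log2 fold change of -1.57, led by Nefl at -2.38 (edgeR adjusted p = 2.78e-06). Their summed level was 14.8 to 22.2 CPM in C22 and 46.5 to 51.4 in WT-C22. In C3, Nefl, Prph and Snap25 were lower and Tubb3 was higher, at 29.1 ± 7.65 CPM beside 3.98 ± 0.415 in WT-C3 (mean ± SD, n = 5). In C3 c-JunP0Cre compared to WT-C3, 4 of the 6 were lower and Tubb3 was higher, and compared to C3 none passed. No neuronal gene of the list was at 0 in a whole group. The part of axonal RNA in the fall of Gap43 was not tested. In these bulk samples fewer cells of a type and less RNA per cell cannot be told apart, which holds for each of the 10 genes.

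**Figure D4:**
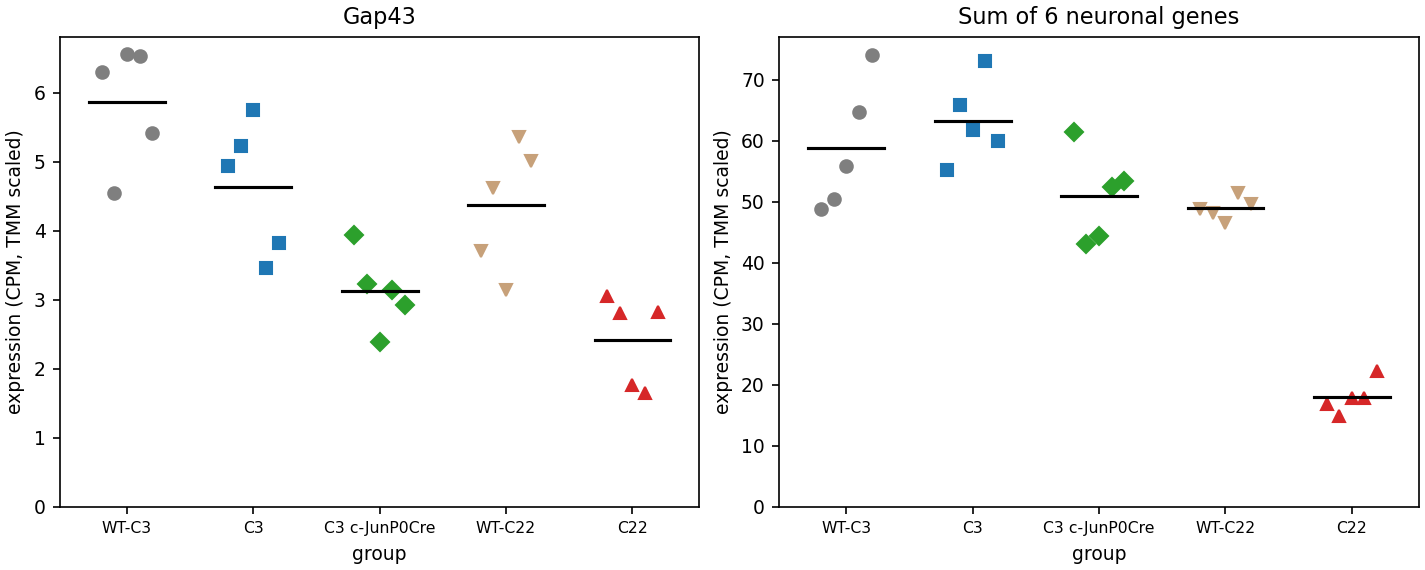
Gap43 (left) and the summed level of 6 neuronal genes (right) in CPM, TMM scaled, for the 5 libraries of each group in order of age, with a line at the mean. The mean of C22 is the lowest in both panels, and in the right panel its libraries lie between 14.8 and 22.2 CPM. Tubb3 holds a mean of 29.1 CPM of the sum in C3, beside 3.98 in WT-C3. Each of the other neuronal genes has a lower mean in C3 than in WT-C3.

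Other genes of the Schwann cell states were counted in lists of their own, of which only the genes kept by the filter could be tested. Their counts stand beside the 23.9% of all genes that passed in C3, the 42.4% in C22 and, in C3 c-JunP0Cre compared to C3, the 0.55% without and 1.95% with age as a block. Of 10 other genes of precursors and immature cells, 6 were kept. In C3, 4 of the 6 were higher and 0 lower (median log2 fold change 0.64). They were Id2, an inhibitor of differentiation, at 1.20, Ednrb, an endothelin receptor, at 1.5, Notch1 at 0.69 and Foxd3, a neural crest factor, at 0.59. In C22, 5 of the 6 were higher and 0 lower (median 0.96), with Id2 at 2.26, Notch1 at 0.71, Ednrb at 1.43 and Id4 at 0.97, and Cdh19 did not pass in either model. None of the 6 passed in C3 c-JunP0Cre compared to C3, and with age as a block Id2 passed at 0.42 (edgeR adjusted p = 0.0205). Of the genes not kept, Pax3 was near 0 in every group, with means from 0 in C22 to 0.099 CPM in C3. Sox11 had means from 0.286 CPM in C22 to 0.384 in WT-C22. Tfap2a ran from 3.66 to 5.69 CPM in C22 and from 0.0415 to 0.308 in WT-C22. It ran from 1.03 to 2.16 CPM in C3 and from 0.0768 to 0.601 in WT-C3. Fabp7 ran from 1.99 to 5.22 CPM in C3 c-JunP0Cre, from 0 to 0.769 in C3 and from 0.782 to 1.46 in WT-C3. These genes were not tested.

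Of the 12 other genes of the c-Jun dependent repair program, 7 were kept, and 5 of these were higher in C3 and 0 lower (median 0.90). They were the cytokine Clcf1 at 2.02, Jun at 0.90, the engulfment receptor Megf10 at 1.37, Atf3 at 0.60 and Shh at 2.48. In C22, 4 of the 7 were higher (Megf10 at 1.94, Atf3 at 1.08, Jun at 1.41 and Clcf1 at 0.73) and 2 were lower. The 2 lower ones were the cytokine Lif at -2.49 and Shh, which had no count in any C22 library. In C3 c-JunP0Cre compared to C3, Jun itself was the 1 gene of the 7 that passed, and with age as a block Shh passed too, at -1.11 (edgeR adjusted p = 0.0422). Of 5 other genes of nonmyelinating cells, 1 was higher in C3 (Csmd1 at 0.42). In C22, Cadm2 (0.79) and Gfra3 (1.28) were higher and Scn7a (-0.57) and Csmd1 (-0.38) lower. Gfra3, a receptor subunit for artemin, rose in C3 c-JunP0Cre compared to C3, by 1.60 (edgeR adjusted p = 0.0215, SE 0.27), and with age as a block Cadm2, an adhesion molecule, passed too, at 0.43 (edgeR adjusted p = 0.0225).

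Schwann cell genes that do not mark the immature state moved as well. Sox10, the transcription factor of the whole lineage, rose by 0.59 in C3 and 0.51 in C22, and Erbb3, the receptor for neuregulin, by 0.71 and 1.29. S100b, a calcium-binding protein of Schwann cells, was lower in C22 at -1.0. Pou3f1, a factor of promyelinating cells, rose by 2.11 in C3 and 3.64 in C22. All 8 proliferation genes were higher in each model, with a median log2 fold change of 1.89 in C3 and 1.88 in C22, where 23.9% and 42.4% of all genes passed. None of the 8 passed in C3 c-JunP0Cre compared to C3, with or without age as a block.

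Markers of other cells of the nerve were counted in the same way, beside the same 23.9% of all genes in C3 and 42.4% in C22. None of 8 macrophage genes passed in C3, and 1 of 8 was higher in C22. Their summed level was 191 to 332 CPM in WT-C3, 205 to 292 in C3, 213 to 356 in WT-C22 and 230 to 321 in C22. None of 6 fibroblast genes passed in C3, and 1 was lower in C22. Perineurial genes were lower for 2 of 4 in C3 and for 4 of 4 in C22, with summed levels of 1052 to 1366 CPM in C22 and 1475 to 2261 in WT-C22. Of 6 genes of endothelial cells and pericytes, 1 was higher and 1 lower in C3 and 4 were lower in C22. None of 6 skeletal muscle genes passed in these comparisons, and their sum ran from 5.84 to 8368 CPM over the libraries. None of 4 adipocyte genes passed in C3 or C22. In C3 c-JunP0Cre compared to C3 none of the genes of these 6 lists passed without the block. With age as a block all 4 adipocyte genes were higher, from 0.66 for Cidec to 0.82 for Lep, as was the perineurial gene Cldn1 at 0.61, and the muscle gene Actn3 was lower at -2.34. The summed level of the adipocyte genes was 126 to 789 CPM in C3 and 235 to 1240 in C3 c-JunP0Cre. None of the genes of these 6 lists was at 0 in a whole group, and their part in the changes of the 10 genes was not tested.

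The controls of the models are of different strains and were compared with each other at the same ages. In WT-C22 compared to WT-C3, Gfap and Ncam1 were higher, Cdh2 was lower and the other 6 genes did not pass, where 21.7% of all genes passed (9.99% higher, 11.7% lower). The libraries did not overlap for Gfap and Cdh2, 2 of the 9 genes, against 16.9% of all genes (8.53% higher, 8.36% lower). The difference for Ncam1 was 0.35 (edgeR adjusted p = 0.0325, SE 0.11), a call lost in 6 of 10 fits with 1 library left out, those without WT-C3 at 7, 9 or 12 weeks or WT-C22 at 3, 5 or 9 weeks. L1cam was at -0.39 (edgeR adjusted p = 0.0611, SE 0.14) and passed without the 9-week WT-C3 library (-0.45, adjusted p = 0.0471) or the 3-week WT-C22 library (-0.51, adjusted p = 0.00819). Sox2 was at -0.29 (edgeR adjusted p = 0.0758), Gap43 at -0.45 (0.0919), Egr1 at -0.45 (0.226), Ngfr at -0.24 (0.304) and Runx2 at 0.06 (0.892). With age as a block, Ngfr at -0.24 (edgeR adjusted p = 0.0414) and L1cam at -0.39 (0.0222) passed too. Of the adipocyte genes, 3 of 4 were higher in WT-C22, with summed levels of 570 to 1904 CPM beside 385 to 834 in WT-C3.

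The change with age was tested with a natural spline of 3 degrees of freedom in 1 fit of all libraries. With 1 library per age and group this fit left few residual degrees of freedom, so a gene that did not pass may still change with age. None of the 9 genes passed in any of the 5 groups, where 0.693% of all genes passed in WT-C3, 2.27% in C3, 3.38% in C3 c-JunP0Cre, 2.86% in WT-C22 and 0.752% in C22. At an unadjusted p under 0.05 there were 1, 1, 0, 2 and 2 of the 9 in these groups. The lowest adjusted p was that of Ngfr in WT-C22 (edgeR adjusted p = 0.0879), whose level was highest at 3 weeks and lowest at 9. With 2 degrees of freedom it was 0.0268 and with DESeq2's likelihood ratio test 0.0256, so that Ngfr then passed. Nor did any of the 9 pass in the tests of different time courses in C3 and WT-C3, in C22 and WT-C22, and in C3 c-JunP0Cre and C3, where 0.0261%, 0.0523% and 0.0588% of all genes passed.

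Linear slopes over the 9 genes ran from -0.09 to 0.11 log2 units per week within the groups, and none passed after adjustment. For Gfap the slope was 0.11 per week in WT-C3 (edgeR adjusted p = 0.194, SE 0.04) and -0.08 in C3 (edgeR adjusted p = 0.184, SE 0.04), -0.08 in C3 c-JunP0Cre (edgeR adjusted p = 0.223, SE 0.04) and -0.08 in WT-C22 (edgeR adjusted p = 0.172, SE 0.03). Its difference between C3 and WT-C3 was -0.19 per week (SE 0.06, edgeR adjusted p = 0.532, unadjusted p = 0.00245). For Sox2 in C22 the slope was -0.06 per week (edgeR adjusted p = 0.174, SE 0.02). Without the 12-week C22 library it was -0.12 and passed (adjusted p = 0.0301), and without the 3-week library, where Sox2 was highest, it was -0.0087 (adjusted p = 0.951).

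The likeness of the 9 genes to each other and to the rest was described by Pearson's r of log2 CPM over the 25 libraries, which share groups and depth, so that no p is given. Sox2 and Runx2 were alike at r = 0.87, as were Sox2 and Ngfr at 0.87, Ngfr and L1cam at 0.85 and Ngfr and Runx2 at 0.84. With the group means taken off, these were 0.14, 0.45, 0.63 and 0.08. Gap43 and Cdh2 were alike at 0.67, and at 0.12 without the group means, and Cdh2 and Sox2 ran against each other at -0.62 (0.08 without the group means). Gfap was most like Ncam1, at 0.62 and next Ngfr, at 0.55.

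Over all genes kept, those most like Sox2 were Cadm1 (r = 0.963), Tnfrsf12a and Ahnak2 (both 0.961). Most like Ngfr were Galnt6 (0.947), Iglon5 (0.942) and Col27a1 (0.935), most like L1cam were Cxcl10 (0.887), Card19 (0.884) and Itga10 (0.881), and most like Cdh2 were Bfsp2 (0.954), Gmfb (0.95) and Vgll3 (0.94). Runx2 was most like the long noncoding gene Pvt1 (0.931) and 2 human genes of the transgene locus (0.921 and 0.916). Gap43 was most like Odc1 (0.846), Maged1 (0.835) and Spart (0.832). Ncam1 was most like Ctc1 (0.857), Ifnar1 (0.815) and Golga2 (0.806), and Gfap like Rubcn (0.793) and Slc17a8 (0.763). For Egr1 they were Aste1 (0.891), Fos (0.853) and Dusp8 (0.851), and with the group means taken off Fos (0.833), Fosb (0.807) and Aste1 (0.77). For the other genes the order within groups brought up different names, led by Ring1 for Sox2 (0.779), Tmem198b for Ngfr (0.858), D330050G23Rik for Ncam1 (0.899), Zfp511 for L1cam (0.845), Fndc10 for Gap43 (0.738), Pde4c for Gfap (0.729), C130023A14Rik for Cdh2 (0.758) and 9430091E24Rik for Runx2 (0.851).

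The spread within a group was given by the coefficient of variation over its 5 libraries. For Ngfr it was 5.38% in C3 c-JunP0Cre and 15.5% in C3, and 16.8% in C3 without the shallow 9-week library. For Sox2 it was 7.75% and 11.8%, and for Runx2 11.5% and 31.3%, but without that C3 library Sox2 varied by 7.25% and Runx2 by 6.01% in C3. Cdh2 varied by 7.66% in C3, by 6.60% there without the 9-week library, and by 7.01% in C22. Gfap varied by 18.9% to 32.4% over the groups, and Egr1 by 35.9% in WT-C3, the group with the high 7-week library.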

How the data were processed

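Whole sciatic nerve RNA of 25 pools was sequenced, and the authors deposited raw read counts per gene. Per the study's methods, the authors trimmed reads with cutadapt 2.10, aligned them with STAR 2.7.5a to GRCm39 with the human PMP22 locus added, removed duplicates by molecular identifier with UMI-tools 1.1.1 and counted genes with HTSeq 0.12.4. Groups were taken from the sample labels. Lines that name no gene were left out of library sizes, and they held 8.12% to 12.1% (no feature), 1.78% to 2.04% (ambiguous) and 2.76% to 3.93% (not unique) of a library.

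The analysis used R 4.3.3 and edgeR 4.0.16 (TMM scaling, quasi-likelihood test, Benjamini-Hochberg adjustment), in fits of the groups compared. The filter asked for a log2 CPM over 1 in 7 of 25 libraries. Change with age was tested with natural splines over all libraries and 15298 genes. Results were recomputed with DESeq2 1.42.0, its median-ratio size factors, library size alone, edgeR's likelihood ratio test, no or another filter, 1 fit of all libraries, age as a block and each library left out. The code was tested on simulated data. Since each age is 1 pool, p-values measure the spread between pools of different ages, and Poisson intervals cover counting error only.

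Samples of 1 age share a replicate number. For C3 c-JunP0Cre and C3, the deviations from the group means of same-age libraries correlated at 0.439, 0.123, 0.347, 0.265 and 0.616 from 3 to 12 weeks. The fit reported takes no account of this pairing, and a fit with age as a block is given beside it. With age as a block, Cdh2 was at 0.38 (edgeR adjusted p = 0.0863). The block for the lists and the spread in C3 without its shallowest library were added after seeing the data. In each other comparison at least 1 age was under 0.1. For WT-C22 and WT-C3 the correlations were 0.342, 0.654, 0.149, 0.536 and 0.0457, and the block is given there too.

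All 10 genes are named with all values, and other genes come from lists of Schwann cell states and of other cell types, or are among the 3 most alike by Pearson's r. Some of these genes, and the counts of lists that hold them, are not reported here. Of the listed genes, those that changed and those whose value a sentence needs are named. The genes and lists were chosen with earlier results of these data known. Symbols and positions are from GENCODE M39, which named 56323 of the 56941 mouse genes.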

Additional observations from a re-analysis of the deposited data

Results flagged for a closer look

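In 4 of the 45 sets of 5 libraries examined (9 genes in 5 groups), 1 library stood apart from the other 4 by Dixon's criterion, which chance meets in about 1 of 20 sets. Sox2 was at 36.2 CPM in C22 at 3 weeks, where the nearest other C22 library was at 24.6 CPM. Ncam1 was at 70.7 CPM in C3 c-JunP0Cre at 12 weeks, and the nearest was 90.6 CPM. L1cam was at 88.0 CPM in WT-C22 at 3 weeks, and the nearest was 64.0 CPM. Runx2 was at 4.33 CPM in C3 at 9 weeks, the shallowest library, and the nearest was 10.1 CPM.

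In the test of the C22 change less the C3 change, 3 genes passed. For Gfap the difference was -2.88 (edgeR adjusted p = 3.22e-06), for Ngfr -0.675 (0.0472) and for Ncam1 -0.456 (0.04). With 1 library left out, the call of Gfap was kept in all 20 fits. That of Ngfr was lost in 16 of them and that of Ncam1 in 13. Gfap was also the 1 gene of the 9 that rose in C3 and fell in C22.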

How the results depend on the processing

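In C3 against WT-C3, 154 of 162 values of the 9 genes under the alternatives kept their direction and their side of the threshold. This held for 158 of 162 in C22 against WT-C22, 148 of 162 in C3 c-JunP0Cre against C3 and 213 of 252 in the difference between the models. With scaling by library size alone, the median of all genes shifted to 0.0764 in C3 and 0.174 in C22 on the log2 scale, the calls were 2584 higher and 1034 lower in C3 (1743 and 1602 with TMM) and 5485 and 1736 in C22 (3070 and 2869 with TMM), and Ncam1 in C22 turned from -0.12 to 0.0504. The same scaling gave 1179 higher and 690 lower for the difference between the models (664 and 1023 with TMM) and 2336 and 1169 for C3 c-JunP0Cre against WT-C3 (1437 and 1578). The difference between the models held 3 lower genes of the 9, but 1 under median-ratio size factors, library size alone, no filter or edgeR's own filter, and 1 to 3 with a library left out. In C3 c-JunP0Cre against C3, DESeq2 called 1 higher and 4 lower, the likelihood ratio test 1 higher and 3 lower and the fit of all libraries 1 higher and 2 lower. With a library left out, 0 to 1 were higher and 2 to 3 lower, Egr1 ran from -0.18 to 0.0612 and Ncam1 from -0.0105 to 0.0889. Over all genes that comparison called 77 genes, 250 with DESeq2, 193 with the likelihood ratio test, 134 with no filter, 139 in the fit of all libraries and 43 to 98 with a library left out. In WT-C22 against WT-C3, 2 of the 9 genes were lower with library size alone, DESeq2 or all libraries, and 3 with age as a replicate block, which added Ngfr at -0.24 (edgeR adjusted p = 0.0414) and L1cam at -0.39 (0.0222). With a library left out, 1 to 2 were higher and 1 to 2 lower, and Runx2 ran from -0.10 to 0.22. For change with age in WT-C22, 1 of the 9 was called with 2 degrees of freedom and 1 with DESeq2. The cause of these changes was not tested. Depth limits Olig1, at 0 to 12 counts in a library, and Runx2 in the C3 library of 9 weeks, at 10 counts.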
